A study of Mus musculus with 8 samples.

Results

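The 40 genes described here mark microglia, the resident macrophages of the brain, in their homeostatic and activated states, and the macrophages of the brain's borders. They were taken from a list of symbols that sets no threshold on a measured value, and all 40 were found among the 40659 gene identifiers counted by polyA-RNA sequencing of mouse hippocampus. The mice were male wild-type C57BL/6JRj animals, injected in the dorsal and ventral hippocampus of both hemispheres with a recombinant adeno-associated virus at 7 to 8 weeks of age, and the hippocampi were taken 4 weeks later, with 12 to 13 weeks given as the age of the tissue. Control and treated mice alike had thus received an injection into the brain. In the hp708 group (4 mice) the virus carried a chimeric hairpin that produces miR-708-5p. In the hpCTL group (4 mice) it carried a control hairpin. The hairpin lies behind EGFP and under the human synapsin promoter, which is used to drive expression in neurons, so the construct was not designed to be expressed in microglia. Each library is 1 mouse, and no uninjected mice are among the groups compared.

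Microglia survey the tissue through receptors for neuronal signals such as fractalkine and purines, and depend on the growth factor receptor CSF1R for survival. When they respond to injury, infection or protein deposits they lower some homeostatic genes and raise genes of phagocytosis, lipid handling and antigen presentation, partly through the receptor TREM2 and its signalling partner TYROBP. They are also the main source of the complement protein C1q in the brain, which tags synapses and debris for removal.

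A microRNA lowers mRNAs that pair with its seed, bases 2 to 8, and sites in the 3'UTR are the usual place of that pairing, so the microRNA and the seed matches in the listed genes are shown first. The mature sequence is from RefSeq, with the seed in capitals.
mmu-miR-708-5p: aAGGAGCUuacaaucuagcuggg
A match of 7 or 8 bases (8mer, 7mer-m8 or 7mer-A1) was present in the 3'UTR of 8 of the 40 genes (20%), searching each gene's longest annotated one, against 3927 of the 14808 tested genes with a 3'UTR (26.5%). The median 3'UTR length was 985 bases for the 40 genes and 1865 bases for the tested genes. The matches are written below 5' to 3' as DNA, with the match in capitals and the neighbouring bases of the mRNA in lower case, most of them before the match, where they face the rest of the microRNA, and a single one after each 7mer-m8. Coordinates are those of the match in GRCm39.
Cx3cr1 7mer-A1 site, chr9:119878880-119878886, minus strand: gttaagagcacagtctGCTCCTA
Sall1 7mer-A1 site, chr8:89754757-89754763, minus strand: actaatggactagagtGCTCCTA
Fcrls 7mer-m8 site, chr3:87158435-87158441, minus strand: gttccctgcctttctAGCTCCTt
Aif1 7mer-A1 site, chr17:35389975-35389981, minus strand: agactaaataaatgacGCTCCTA
C1qb 7mer-A1 site, chr4:136606410-136606416, minus strand: tgggattacaggctggGCTCCTA
C1qb 7mer-m8 site, chr4:136606083-136606089, minus strand: tctagcgtccgcttcAGCTCCTt
Ctss 7mer-m8 site, chr3:95459256-95459262, plus strand: agtcctcaatgacacAGCTCCTc
Lyve1 8mer site, chr7:110451127-110451134, minus strand: accaggtcctaaaacAGCTCCTA
Csf1r held 1 more match, a 7mer-m8. The only 8mer was in Lyve1, a gene with too few counts to be tested, and C1qb was the only gene with 2 matches. Of the 7 tested genes with a match, Cx3cr1, Csf1r, Sall1, Aif1, C1qb and Ctss had a log2 fold change below 0 in the fit described below (from -0.11 for Sall1 to -0.54 for Ctss), as did 35 of all 38 tested genes of the list, and Fcrls had one above 0 (0.43). Without the library labelled hp708 replicate 1, Cx3cr1 (0.039), Aif1 (0.073) and C1qb (0.065) were above 0 too. A match is a description of the sequence and says nothing of binding.

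Total counts ran from 22606824 to 28462428 per library. Mir708, the gene of the microRNA's precursor, had 0 counts in every library, so its overexpression cannot be checked in these data. One label is in conflict. The source data of a qPCR experiment of the study place animal 1602 in hpCTL, while its sequencing library is labelled hp708 replicate 1. It was kept in the group that its sample label gives, and each group of genes is also given below without it, in the fit with 3 surrogate variables. Values are CPM, counts scaled to a common library size after TMM normalization, and levels are compared between genes as FPKM, CPM per kilobase of summed exon length. Of the 40 genes, 38 passed the filter on low counts. Lyve1, with 0.0874 to 0.563 CPM, and Pf4, with 0.0413 to 0.601 CPM, did not. The groups overlapped for both.

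In the fit with 3 surrogate variables (estimated covariates for unknown variation between libraries), most microglial genes were lower in hp708 than in hpCTL, but 0 passed a false discovery rate (FDR) of 0.05. Of the 38 tested genes 35 had a log2 fold change below 0, where 53.2% of all 17252 tested genes did. Their median log2 fold change was -0.35, against -0.0091 over all tested genes. At an unadjusted p-value below 0.05, 18 of the 38 were lower, where 4.87% of all genes were, and 1, Fcrls, was higher, where 2.82% were. In either direction this made 19 of 38, against 7.7% of all genes. Most of the 38 genes varied together over the libraries, as described below, so they are not separate observations. The lowest FDR among them was 0.329, for Fcgr3, by edgeR's quasi-likelihood fit, which gave every FDR below unless another tool is named, while 0.0058% of all genes, a single one, passed an FDR of 0.05. In whole tissue, fewer cells that express these genes, microglia or others, and less of their RNA per cell cannot be told apart.

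These differences rested on the surrogate variables and on single libraries. Without surrogate variables 32 of the 38 genes still had a log2 fold change below 0 (52.9% of all genes did), but the median shrank to -0.12, and 0 of 38 had an unadjusted p-value below 0.05, where 1.81% of all genes did. The lowest p was then 0.0885, for Siglech, and 0% of all genes passed an FDR of 0.05. Without the library labelled hp708 replicate 1, and with 3 surrogate variables, only 17 of the 38 were lower and the median was 0.025. Only 4 then passed that p, Siglech and Spp1 lower and Clec7a and Lpl higher, where 12.2% of all genes did. Without hpCTL replicate 3 that number was 6, all lower, where 2.98% of all genes passed. Without hp708 replicate 4 it was 28, of which 27 were lower, where 8.46% of all genes passed. When only genes with at least 10 counts in every library were kept, 1 of 36, Siglech, had an unadjusted p-value below 0.05, where 5.72% of all genes did, and the median was -0.065.

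The CPM of the groups overlapped for each of the 38 genes. Over all tested genes, the 4 values of one group lay entirely above or below those of the other for 1.51%. With 3 surrogate variables the likelihood ratio test, which the study's methods name, called 5 of the 38 genes at an FDR below 0.05, namely Mpeg1, C1qa, Fcgr3, Ctss and Cst7, where it called 0.736% of all genes. DESeq2 with the same covariates called 6, namely Mpeg1, C1qc, Fcer1g, Fcgr3, Ctss and Cst7, where it called 0.556% of all genes. All were lower in hp708, and neither tool called any of the 38 without surrogate variables.

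**Figure D1:**
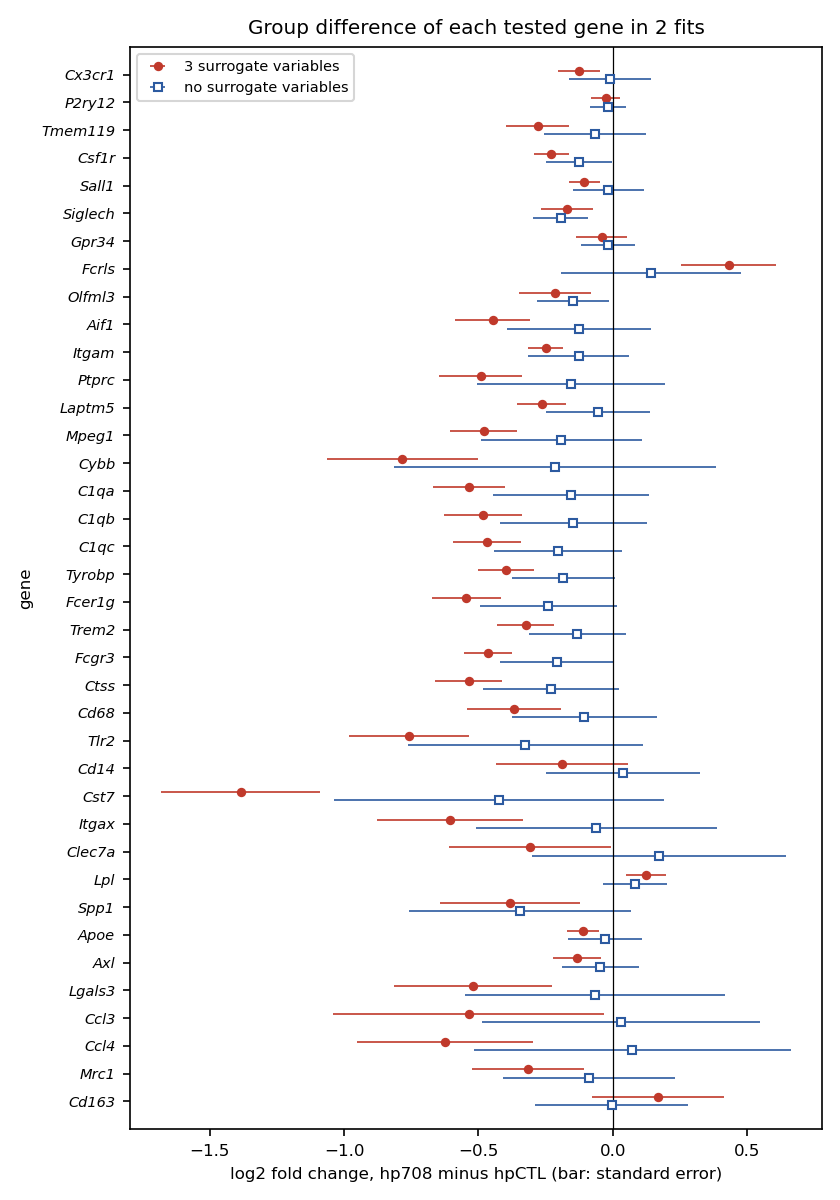
Log2 fold change (x axis, hp708 minus hpCTL) of the 38 tested genes (y axis) in the quasi-likelihood fit of edgeR with 3 surrogate variables (filled circles) and without (open squares), with bars for the standard error. With surrogate variables 35 of 38 genes lie below 0, with a median of -0.35, and without them 32 do, with a median of -0.12, with wider bars and, except for Siglech, points closer to 0.

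The highest library exceeded the lowest by a median factor of 1.52 for the 9 homeostatic genes, against 1.47 for all tested genes, and Tmem119 and Fcrls, with 1.93 and 2.80, varied most among them. P2ry12, the purine receptor through which microglial processes are drawn to injury, had 39.0, 36.5, 38.3 and 37.6 CPM in hpCTL replicates 1 to 4 and 34.7, 36.8, 39.4 and 38.6 CPM in hp708 replicates 1 to 4. The highest library exceeded the lowest by a factor of only 1.14, and its log2 fold change was -0.026 (standard error 0.053). Gpr34, a lysophospholipid receptor, ranged from 11.6 to 14.0 CPM. Siglech, a sialic acid receptor that marks microglia, ranged from 15.4 to 21.6 CPM, with group means of 19.4 ± 1.62 CPM in hpCTL and 16.9 ± 1.61 CPM in hp708 (SD, n = 4 each). P2ry12, Gpr34 and Siglech, like other genes given here beyond the rule for named genes, were chosen after their values were seen.

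Tmem119, a membrane protein used to tell microglia from blood-derived macrophages, was the lowest of the homeostatic genes in hp708 by fold change, -0.28 (standard error 0.12). The 8 libraries gave 49.3, 54.9, 59.2 and 64.2 CPM in hpCTL replicates 1 to 4 and 37.5, 63.5, 44.0 and 72.4 CPM in hp708, so that the hp708 mice included both the lowest and the highest. Csf1r, the receptor for the survival factors CSF1 and IL-34, lay between 149 and 208 CPM with a fold change of -0.23, and Cx3cr1, the fractalkine receptor, between 58.6 and 93.4 CPM with -0.13. Sall1, a transcription factor of microglial identity, lay between 25.5 and 38.9 CPM, and Olfml3, a secreted protein enriched in microglia, between 26.7 and 41.8 CPM. Only Tmem119 and Csf1r among the homeostatic genes below 0 had an unadjusted p-value below 0.05. Once the library labelled hp708 replicate 1 was left out neither had, at 0.11 (standard error 0.070) and -0.066 (0.057), and Siglech, at -0.29 (0.090), was the only homeostatic gene that had.

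Fcrls, an Fc receptor-like gene that marks resident microglia in mice, ran the other way. It had 11.3, 5.86, 5.50 and 4.02 CPM in hpCTL and 9.50, 6.52, 8.99 and 4.42 CPM in hp708. The 3 libraries with the most Fcrls, hpCTL replicate 1, the library labelled hp708 replicate 1 and hp708 replicate 3, were those with the least of most other genes described here. With surrogate variables it was higher by 0.43 on the log2 scale (standard error 0.18, FDR 0.645), and without them by 0.14 (standard error 0.34). Leaving out the library labelled hp708 replicate 1 gave 0.11 with surrogate variables (standard error 0.16). The gene, ENSMUSG00000015852 at chr3:87156616-87181827 on the minus strand of GRCm39, is named Fcrl2 in the annotation used and was matched by its identifier and sequence.

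The 6 genes common to myeloid cells were all lower in hp708 in the fit with surrogate variables, each with an unadjusted p-value below 0.05. Cybb, the catalytic subunit of the phagocyte NADPH oxidase, differed most at -0.78 (standard error 0.28). The hpCTL mice had 5.68, 17.5, 27.7 and 36.5 CPM and the hp708 mice 8.16, 25.8, 7.37 and 34.0 CPM. Both groups thus spanned low and high mice, and the highest library had 6.42 times the lowest. Itgam, the integrin chain CD11b, differed least at -0.25 (standard error 0.065), with 28.4, 44.5, 50.7 and 52.7 CPM in hpCTL and 35.1, 43.2, 34.7 and 48.3 CPM in hp708. Gm49368, a protein-coding gene on the same strand, shares 67.4% of the exon bases of Itgam, and how shared reads were counted is not stated, so the value of Itgam is uncertain. Other listed genes share fewer exon bases with counted genes. The largest shares were 19.8% for Csf1r and 16.6% for Aif1, on the opposite strand, and 12.7% for Spp1, on the same strand. Whether strand was used is not given, so a smaller doubt of this kind applies to them. Aif1 (the microglial protein IBA1), Ptprc (the leukocyte antigen CD45), Laptm5 (a lysosomal membrane protein of blood cells) and Mpeg1 (the pore-forming perforin-2) lay between, from -0.27 for Laptm5 to -0.49 for Ptprc. In the fit without the library labelled hp708 replicate 1 none of the 6 had an unadjusted p-value below 0.05, 3 were below 0, and they lay between -0.11 for Itgam and 0.077 for Laptm5, with Cybb at 0.015 (standard error 0.091).

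The 3 genes of C1q, the recognition molecule of the classical complement pathway, followed one another across the libraries. C1qa was the second most abundant of the 40 genes per length, with 111 FPKM over all libraries, after Apoe with 405. That rank depends on the annotated exon length, 1610 bases for C1qa and 6246 for C1qb, which had 24.2 FPKM. C1qa stood at 143, 177, 218 and 214 CPM in hpCTL and at 90.0, 213, 122 and 249 CPM in hp708. C1qc stood at 106, 133, 156 and 167 CPM in hpCTL and at 83.1, 152, 87.5 and 166 CPM in hp708. In hp708 the mice split into a low pair and a high pair, and 2 of the 4 mice were below every hpCTL mouse. The fold changes were -0.53 (standard error 0.14) for C1qa, -0.48 (0.15) for C1qb and -0.47 (0.13) for C1qc with surrogate variables, and -0.16 (0.29), -0.15 (0.27) and -0.20 (0.24) without. They rested on the library labelled hp708 replicate 1. Without it, and with 3 surrogate variables, they were 0.069 (0.089), 0.065 (0.078) and -0.039 (0.071), and none had an unadjusted p-value below 0.05.

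Fcgr3, Fcer1g, Tyrobp and Trem2 encode receptors and adaptors that signal through ITAM motifs, and all 4 were lower in the fit with surrogate variables with an unadjusted p-value below 0.05. Fcgr3, a low-affinity receptor for IgG, had the lowest p of the 38 genes, with a fold change of -0.46 and a standard error of 0.089. It had 28.5, 31.8, 37.0 and 35.8 CPM in hpCTL and 19.4, 39.0, 21.9 and 34.9 CPM in hp708. The hpCTL mice lay close together while hp708 held the 2 lowest mice and the highest. Reads of Fcgr3, at chr1:170878738-170893549 on the minus strand of GRCm39, may be shared with related Fc receptor genes. Fcer1g, the gamma chain through which such receptors signal, differed most, by -0.54 (standard error 0.13). In hpCTL it had 19.0, 23.2, 26.8 and 29.9 CPM, and in hp708 13.1, 28.8, 15.2 and 26.8 CPM. Trem2, the lipid-sensing receptor of activated microglia, differed least, by -0.32 (standard error 0.11), with 30.8, 32.5, 38.2 and 35.5 CPM in hpCTL and 22.8, 36.7, 24.7 and 40.8 CPM in hp708. Tyrobp, its adaptor DAP12, was between them at -0.40. Without surrogate variables the fold changes were -0.21 (standard error 0.21) for Fcgr3, -0.24 (0.26) for Fcer1g, -0.18 (0.19) for Tyrobp and -0.13 (0.18) for Trem2. With 3 surrogate variables but without the library labelled hp708 replicate 1 they were -0.037 (0.097), -0.052 (0.082), -0.021 (0.085) and 0.039 (0.092), and none had an unadjusted p-value below 0.05.

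Of the lysosomal genes, Ctss, the protease cathepsin S that prepares class II molecules for antigen loading, had 245, 297, 368 and 366 CPM in hpCTL and 166, 340, 203 and 379 CPM in hp708. It differed by -0.54 on the log2 scale with 3 surrogate variables (standard error 0.12, adjusted p 0.386) and by -0.23 without them (standard error 0.25). Cd68, a lysosomal glycoprotein used as a marker of phagocytic activity, had 14.3, 18.4, 24.8 and 23.9 CPM in hpCTL and 13.9, 22.9, 11.9 and 26.9 CPM in hp708, with a fold change of -0.37 (standard error 0.18). The groups overlapped broadly for both. When the library labelled hp708 replicate 1 was left out, Ctss differed by -0.031 (standard error 0.077) and Cd68 by 0.037 (0.11) with surrogate variables.

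The promoters of the 40 genes were searched on both strands for GAGGAAGT (ACTTCCTC on the other strand), a core sequence recognized by PU.1, the Spi1 product that directs myeloid gene expression. It contains GGAA, the core shared by all ETS factors. Of the 40 genes 31 had a promoter (250 bases before to 50 after the start) among the RefSeq promoters of GRCm38.p6, and 4 of them (12.9%) held the motif, namely Ctss, C1qc, Pf4 and Spp1. Over all 27025 genes with such a promoter, 3.69% did. Ctss and C1qc followed the library order of most genes, while Spp1 and Pf4 did not. The promoters of Ctss and C1qc are shown with the motif in capitals, in coordinates of GRCm38.p6.
Ctss promoter, chr3:95526536-95526835, plus strand: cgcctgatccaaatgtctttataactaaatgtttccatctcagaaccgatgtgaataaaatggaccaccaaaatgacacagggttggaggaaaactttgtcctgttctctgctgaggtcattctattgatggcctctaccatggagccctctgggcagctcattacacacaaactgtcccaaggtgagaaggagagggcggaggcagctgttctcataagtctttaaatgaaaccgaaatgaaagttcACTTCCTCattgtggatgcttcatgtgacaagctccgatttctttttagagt
C1qc promoter, chr4:136892865-136893164, minus strand: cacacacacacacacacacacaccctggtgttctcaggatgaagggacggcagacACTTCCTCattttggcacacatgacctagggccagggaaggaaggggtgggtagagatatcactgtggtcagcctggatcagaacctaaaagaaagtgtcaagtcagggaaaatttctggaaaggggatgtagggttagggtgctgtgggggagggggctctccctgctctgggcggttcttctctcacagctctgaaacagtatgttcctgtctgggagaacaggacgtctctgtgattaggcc
In Ctss the motif begins 2 bases before the start and in C1qc 195 bases before it. No binding was measured, and the motif's absence elsewhere says only that these letters are not in that window.

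Tlr2, the receptor for bacterial lipopeptides, had 5.43, 11.4, 14.2 and 19.2 CPM in hpCTL and 5.11, 12.8, 5.93 and 16.3 CPM in hp708. Its fold change was -0.76 (standard error 0.22) with an unadjusted p-value below 0.05. Cd14, the co-receptor for lipopolysaccharide, had 3.61, 3.67, 6.07 and 4.58 CPM in hpCTL and 3.99, 6.13, 2.56 and 5.74 CPM in hp708, and its fold change of -0.19 (standard error 0.24) became 0.038 without surrogate variables. Leaving out the library labelled hp708 replicate 1 gave -0.12 (standard error 0.11) for Tlr2 and 0.15 (0.23) for Cd14 with surrogate variables, neither with an unadjusted p-value below 0.05. The ranges of the groups overlapped for both.

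The 10 genes of disease-associated and activated microglia held both wide and narrow ranges between mice, and only Cst7 among them had an unadjusted p-value below 0.05. Cst7, the protease inhibitor cystatin F, at chr2:150412284-150420864 on the plus strand of GRCm39, had 4.18, 9.27, 13.4 and 14.3 CPM in hpCTL and 1.81, 11.7, 2.98 and 14.3 CPM in hp708. The highest library had 7.92 times the lowest, with mice near 14 CPM in both groups. The log2 fold change was -1.39 with surrogate variables (standard error 0.29, FDR 0.382), -0.42 (standard error 0.62) without them, and -0.087 without them and without the library labelled hp708 replicate 1. With surrogate variables and without that library it was -0.17 (standard error 0.19).

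Lpl, lipoprotein lipase, was the highest of the activated genes by fold change at 0.12 (standard error 0.075). It had 53.4, 42.0, 36.4 and 37.6 CPM in hpCTL and 41.2, 43.8, 46.6 and 47.6 CPM in hp708, and hippocampal neurons are known to express it too. Apoe, the lipid carrier that is mainly astrocytic in healthy brain, lay between 1311 and 2116 CPM with a fold change of -0.11 (standard error 0.06), and the receptor tyrosine kinase gene Axl between 57.9 and 88.1 CPM with -0.13 (standard error 0.089). Neither is specific to microglia, and both varied by factors below that of Cst7, 1.62 and 1.52.

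Itgax (the integrin chain CD11c), Clec7a (the beta-glucan receptor Dectin-1) and Lgals3 (galectin-3) had 3.15 to 13.6, 2.89 to 12.3 and 2.07 to 8.39 CPM. Their fold changes were -0.61, -0.31 and -0.52, and that of Clec7a became 0.17 without surrogate variables. The chemokine genes Ccl3 and Ccl4 were the least abundant of this group, with 0.254 to 1.65 and 0.179 to 0.957 CPM, and both changed sign without surrogate variables, to 0.031 and 0.073. Spp1, the secreted phosphoprotein osteopontin, had 2.90 to 15.7 CPM in an order of its own. With surrogate variables but without the library labelled hp708 replicate 1, the median of the 10 activated genes was 0.17, with Clec7a at 0.42 (standard error 0.13), Lpl at 0.21 (0.080) and Spp1 at -0.54 (0.17) the 3 with an unadjusted p-value below 0.05.

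Mrc1, the mannose receptor CD206 of border macrophages, had 3.64, 4.07, 5.74 and 5.67 CPM in hpCTL and 5.00, 7.13, 2.30 and 3.55 CPM in hp708. Cd163, a scavenger receptor for haemoglobin, had 1.25, 0.700, 0.656 and 0.864 CPM in hpCTL and 1.09, 0.826, 0.810 and 0.744 CPM in hp708. Their fold changes were -0.32 (standard error 0.21) and 0.17 (standard error 0.25), and that of Cd163 was -0.0044 without surrogate variables. Lyve1, a hyaluronan receptor, had 9, 2, 8 and 15 counts in hpCTL and 13, 4, 10 and 10 counts in hp708. Pf4, platelet factor 4, had 7, 10, 3 and 16 counts in hpCTL and 13, 2, 9 and 1 counts in hp708. The groups overlapped for these 4 border genes, and neither tested one had an unadjusted p-value below 0.05, with or without the library labelled hp708 replicate 1, where Mrc1 was at -0.22 (standard error 0.22) and Cd163 at 0.070 (0.32).

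**Figure D2:**
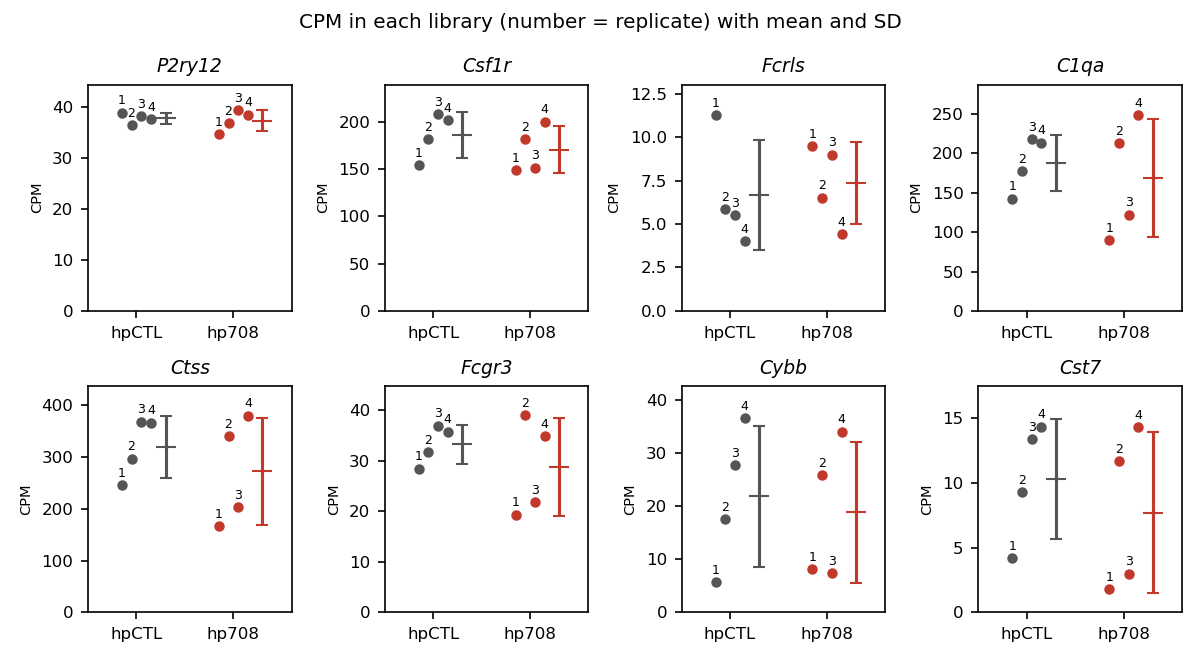
CPM (y axis, from 0) of 8 of the genes in each hpCTL and hp708 library (points, numbered by replicate), with the group mean and SD (n = 4 each). P2ry12 stays between 34.7 and 39.4 CPM, Cst7 runs from 1.81 to 14.3 CPM within hp708, and Fcrls is highest in hpCTL 1, hp708 1 and hp708 3, where C1qa, Ctss, Fcgr3, Cybb and Cst7 are lowest.

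Across the 8 mice, the pattern shared by the genes cut across the groups. For 27 of the 38 tested genes the 3 lowest libraries were hpCTL replicate 1, the library labelled hp708 replicate 1 and hp708 replicate 3. These 27 were all 6 common myeloid genes, all 3 of C1q, all 4 of the ITAM group, both lysosomal genes, 1 of the 2 pattern recognition genes, 7 of the 10 activated genes and 4 of the 9 homeostatic genes, and neither tested border gene. The library labelled hp708 replicate 1 was the lowest of the 8 for 18 genes, hpCTL replicate 1 for 10 and hp708 replicate 3 for 6. At the other end, hp708 replicate 4 was the highest for 14 genes, hp708 replicate 2 for 8 and hpCTL replicate 4 for 7. By their sample labels the low end thus held 1 hpCTL and 2 hp708 mice, and one of the latter is the library whose label is in conflict.

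The spread differed between genes, and no test compared the roles. The biological coefficient of variation, the spread between mice of a group beyond counting noise, had a median of 14.3% for the homeostatic genes and 15.4% for all tested genes. It was 20.8% for the ITAM group, 26.5% for the lysosomal, 27.3% for the C1q, 28.6% for the common myeloid, 28.7% for the border and 37.0% for the pattern recognition genes, and 46.1% for the activated genes. Single genes departed from their group. Lpl (12.8%), Axl (14.9%) and Apoe (14.9%) of the activated genes lay below the median of all tested genes, and Fcrls of the homeostatic genes had 34.9%. It was lowest for P2ry12, 8.54%, which is the 6.79th percentile of all tested genes, and highest for Cst7, 59.8%, the 98.5th percentile. The ratio of Cst7 to P2ry12 CPM went from 0.0522 in the library labelled hp708 replicate 1 to 0.381 in hpCTL replicate 4, and was 0.107 in hpCTL replicate 1 and 0.370 in hp708 replicate 4. The surrogate variables took up much of this spread. The median residual SD of the 38 genes on the log2 scale fell from 0.45 without them to 0.24 with 3, while over all tested genes it went from 0.18 to 0.12.

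**Figure D3:**
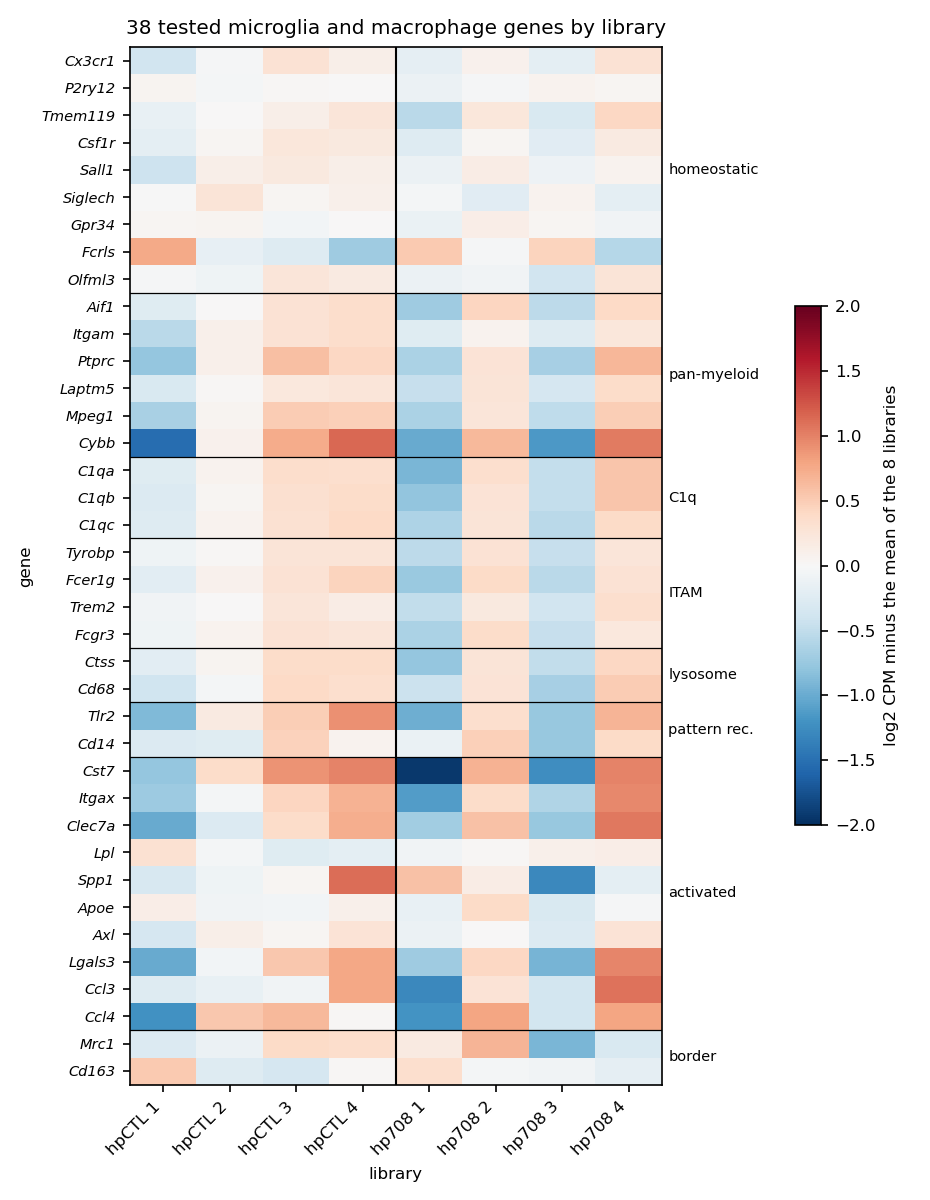
Log2 CPM of each of the 38 tested genes (rows, grouped by role) in each library (columns, hpCTL left of the line and hp708 right) minus the gene's mean over the 8 libraries, red for higher and blue for lower. Blue columns in hpCTL 1, hp708 1 and hp708 3 mark the 3 lowest libraries of 27 genes, while P2ry12 and Gpr34 are nearly blank and Fcrls is red in those 3 columns.

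Other genes of the microglial pathways were followed in lists of known function. Of 8 microglial transcription factors 6 lay below 0, the median being -0.30, and 4, among them Irf8, Spi1 and Ikzf1, had an unadjusted p-value below 0.05. Irf8, which directs microglial development and reactivity, was the lowest at -0.63 (standard error 0.11, FDR 0.294), and Mef2a, which neurons also express, the highest at 0.10. All 7 genes of TREM2 and ITAM signalling were lower (median -0.43), from -0.55 for Hcst, the adaptor DAP10, to -0.24 for Inpp5d, the phosphatase SHIP1, and 4 (Btk, Syk, Vav1 and Plcg2) had an unadjusted p-value below 0.05. Without the library labelled hp708 replicate 1 the medians of both lists were -0.030 and -0.041, and Mef2a, higher at 0.18 (standard error 0.054), was the only one of these genes with an unadjusted p-value below 0.05. None of the 117 tested genes of all the lists named from here on, these included, passed an FDR of 0.05. At an unadjusted p-value below 0.05 there were 41 (39 lower, 2 higher), against 7.7% of all genes, 2 without surrogate variables, against 1.81%, and 23 without the library labelled hp708 replicate 1 (14 lower, 9 higher), against 12.2%.

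Microglia receive signals from neurons and other cells through paired ligands and receptors. The 7 ligands and receptors of the CSF1R, CX3CR1, CD200R and CD47-SIRPA axes had a median of -0.043, from -0.67 for Cd200r1, at 0.181 to 1.24 CPM, to 0.078 for Cd47. Only Cd200, a ligand that restrains microglia, had an unadjusted p-value below 0.05, and it also had one without surrogate variables, at -0.20. The 7 genes of TGF-beta and its activation, which maintains microglial identity, had a median of 0.038, from -0.40 for Tgfb1 to 0.14 for Itgb8. Only Tgfb1 among them had an unadjusted p-value below 0.05. The 10 further surface genes had a median of -0.17, from -0.42 for Entpd1, the ectonucleotidase CD39, to 0.035 for the ATP-gated channel gene P2rx7, and Entpd1 was among the 2 with an unadjusted p-value below 0.05. Without the library labelled hp708 replicate 1 the medians of these 3 lists were 0.063, 0.059 and 0.039, and Cd200 (lower), Itgb8, Nrros and P2rx7 (higher) had such a p.

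Of 8 complement genes beyond C1q, C3, the central component on which the pathways converge, was the lowest at -0.76 (standard error 0.26). The list's median was -0.39, and 1 gene, C3, had an unadjusted p-value below 0.05. The 8 tested cytokine and inflammasome genes were all below 0 (median -0.59), from -0.93 for the interferon-induced chemokine gene Cxcl10 to -0.089 for Nlrp3, and Cxcl10, Ccl2 and Il1b had an unadjusted p-value below 0.05. Of 6 tested further border macrophage genes all were below 0, from -0.92 for F13a1 to -0.085 for Stab1, and 1 (F13a1) had an unadjusted p-value below 0.05. Without the library labelled hp708 replicate 1 the complement, cytokine and border lists had medians of 0.022, 0.062 and -0.26, C3 was at 0.030 (standard error 0.056), and only C4b (higher) and F13a1 (lower) had such a p.

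Markers of other cells and states moved with the microglial genes. The 5 MHC class II genes, which present antigen to T cells, were all lower with an unadjusted p-value below 0.05, from -1.01 for Cd74 to -0.77 for Ciita. Their summed level ran from 355 to 1648 CPM in hpCTL and from 303 to 1403 CPM in hp708. All 10 interferon-stimulated genes were lower with an unadjusted p-value below 0.05, from -0.86 for Ifi27l2a to -0.52 for Ifit1, with summed levels of 189 to 489 CPM in hpCTL and 174 to 429 CPM in hp708. Of the 8 lymphocyte genes 7 were below 0, and 4 of these (Cd8a, Cd3e, Jchain and Cd79a) had an unadjusted p-value below 0.05, from -1.30 for Cd8a to 0.19 for Ms4a1, and their sum was 209 to 568 CPM in hpCTL and 192 to 533 CPM in hp708. Without surrogate variables 0 of the MHC class II, interferon-stimulated and lymphocyte genes reached that p. With them but without the library labelled hp708 replicate 1, 0 of the MHC class II and lymphocyte genes reached it, with medians of -0.074 and -0.054, and 4 interferon-stimulated genes did, among them Ifit3, Oasl2 and Ifi27l2a, all lower, in a list whose median was -0.11.

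Of 8 monocyte and neutrophil genes 5 (S100a8, S100a9, Ly6g, Chil3 and Camp) had too few counts to be tested. The 3 others were between -0.73 for Plac8 and -0.71 for Ly6c2, and 2 (Plac8 and Ly6c2) had an unadjusted p-value below 0.05, with a sum of 9.57 to 28.5 CPM in hpCTL and 9.86 to 21.7 CPM in hp708. Only Ly6c2, without the library labelled hp708 replicate 1, had such a p, at -0.41 (standard error 0.15). The part of lymphocytes, monocytes and the interferon genes in the microglial differences was not tested.

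Astrocyte and neuronal genes varied little as lists. The mean log2 CPM of 8 astrocyte genes varied by 0.23 over the 8 libraries and that of 7 neuronal genes by 0.21, where that of the homeostatic microglial genes varied by 0.20 (0.32 without Fcrls, which ran against the others), that of the common myeloid genes by 1.20 and that of the MHC class II genes by 2.37. Single genes varied more, and the highest library had 2.53 times the lowest for Gfap, 1.85 times for Aqp4 and 1.63 times for Camk2a. The astrocyte genes lay between -0.08 for Aldh1l1 and 0.20 for Gfap, and the neuronal genes between -0.16 for Tubb3 and 0.22 for Camk2a. Of these, Slc1a2 (0.16), Camk2a and Tubb3 had an unadjusted p-value below 0.05, and Tubb3 also without surrogate variables, as the only listed gene beside Cd200. When the library labelled hp708 replicate 1 was left out, Gfap (0.49), Aqp4 (0.33) and Camk2a (0.18) were higher and Aldoc (-0.13) and Tubb3 (-0.20) lower at that p. The choroid plexus, a tissue beside the hippocampus that dissection can include, gave the widest range, with sums of 56.3 to 2072 CPM in hpCTL and 109 to 4445 CPM in hp708. It was highest in hp708 replicate 2 and lowest in hpCTL replicate 1, its genes lay between -0.081 for Kcne2 and 0.59 for Aqp1, and the meningeal fibroblast genes lay between -0.47 for Ogn and 0.35 for Col1a1. The mean of the fibroblast list was highest in the library labelled hp708 replicate 1, where Col1a1, Col1a2, Dcn and Igf2 had their maximum, while Lum was highest in hp708 replicate 2 and Slc6a13 and Ogn in hpCTL replicate 4. Without that library the direction of the choroid plexus genes depended on the surrogate variables. With them all 8 were lower (median -0.29), Folr1 and Kcne2 at an unadjusted p-value below 0.05, and without them 0 were (median 0.56) and 0 had such a p. The fibroblast genes then had medians of -0.33 with them, Dcn, Igf2 and Ogn being lower and Col1a1 higher at that p, and of -0.17 without them, where only Dcn, lower, had such a p. That library was among the lowest for most microglial genes, and the part of the dissection in the microglial differences was not tested.

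**Figure D4:**
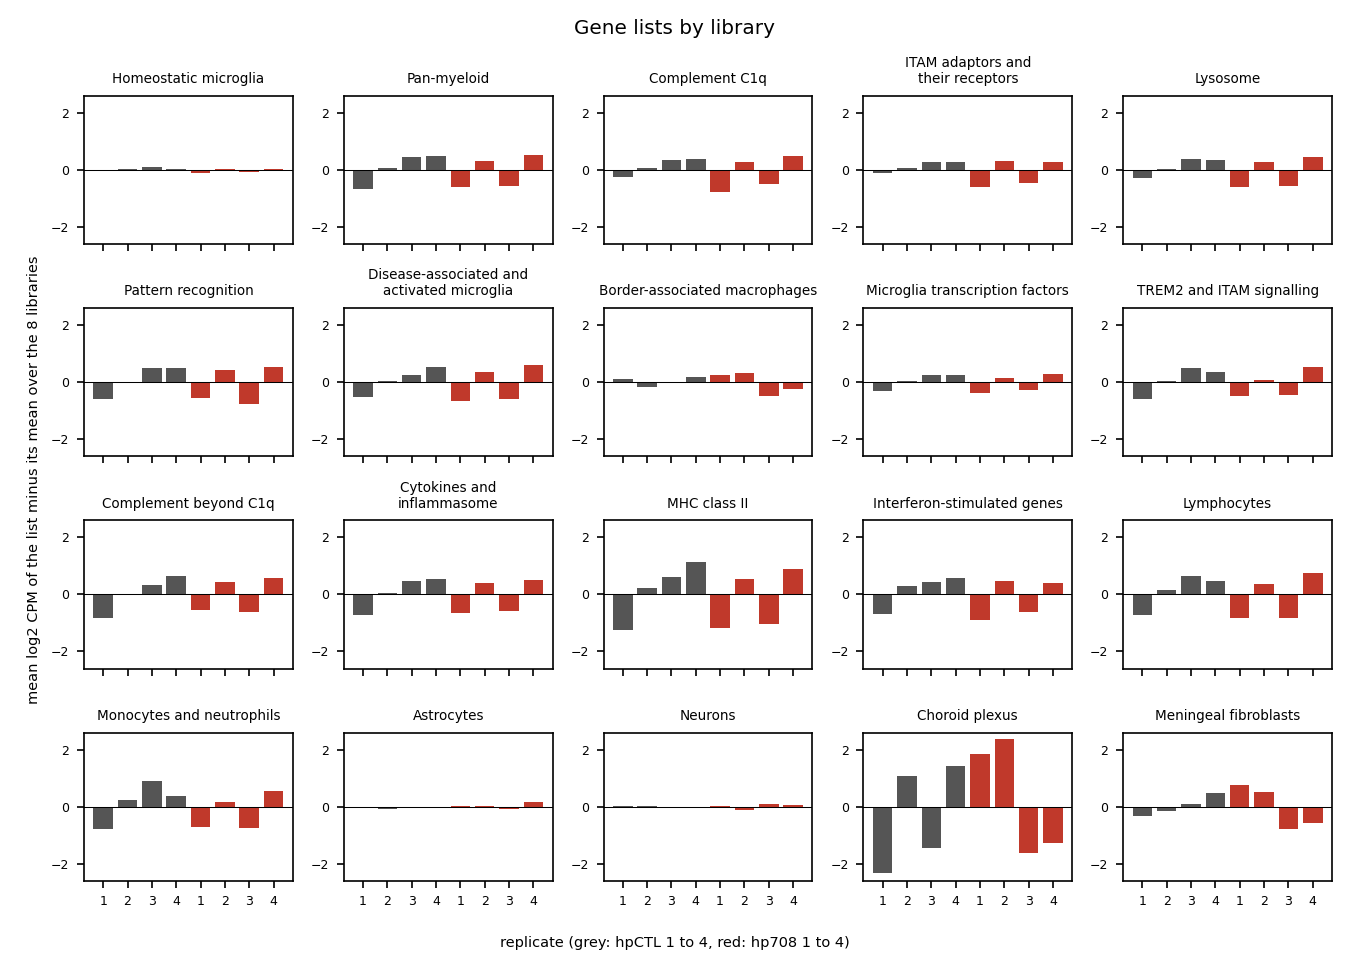
Mean log2 CPM of the tested genes of 20 lists minus the list's mean over the 8 libraries (y axis, same scale in each panel), for hpCTL replicates 1 to 4 (grey) and hp708 replicates 1 to 4 (red). The bars of hpCTL 1, hp708 1 and hp708 3 point down in the common myeloid, C1q, ITAM, MHC class II, interferon and lymphocyte panels, while the astrocyte and neuron panels stay near 0 and the choroid plexus follows another order.

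The count of microglial genes with an unadjusted p-value below 0.05 grew with the number of surrogate variables, from 0 without any to 12 with 1, 14 with 2 and 19 with 3. The share over all tested genes grew too, from 1.81% to 3.44%, 4.1% and 7.7%. The median log2 fold change went from -0.12 to -0.20, -0.25 and -0.35. All 12 and all 14 were lower in hp708.

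**Figure D5:**
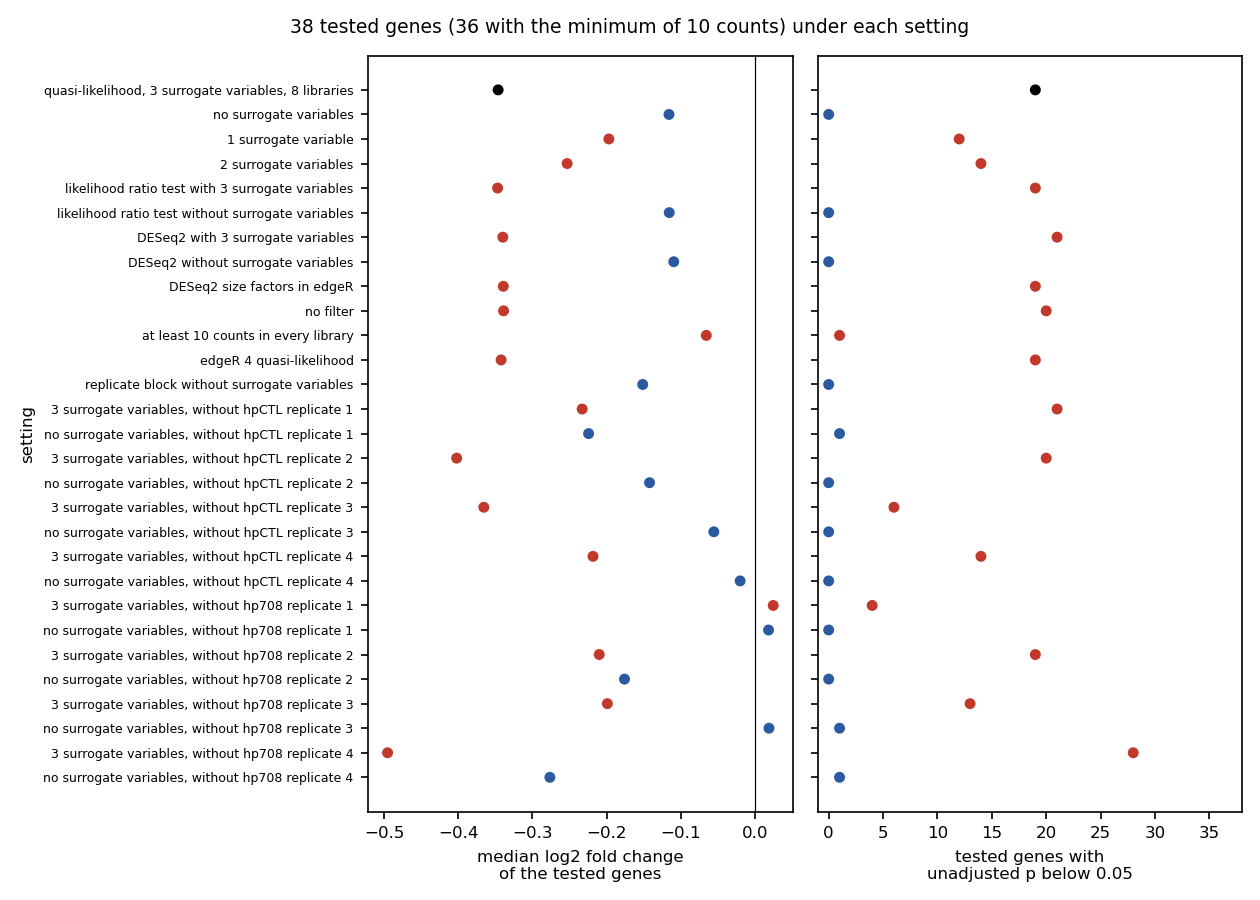
Median log2 fold change of the tested genes (left, x axis) and number with an unadjusted p-value below 0.05 (right, x axis) under each setting (y axis), black for the fit with 3 surrogate variables and all libraries, red for other settings with surrogate variables and blue for those without. The number is 19 in the first row, 4 without hp708 replicate 1, 28 without hp708 replicate 4, and 0 or 1 in every blue row.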

How the data were processed

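PolyA-RNA was sequenced from whole hippocampi of 4 hpCTL and 4 hp708 mice. Reads were mapped by the authors to GRCm39 (STAR 2.7.8a) and assigned to genes (featureCounts 1.6.4), and the table they deposited holds raw counts that had not been normalized. Whether strand was used, and how multi-mapping reads were treated, is not given in the sources used here. Samples were grouped by their labels, and all 8 columns were matched by animal number. A later GENCODE release named 39641 of the 40659 identifiers and left 1018 unnamed.

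Low genes were removed by filterByExpr. The quasi-likelihood test of edgeR 4.0.16 in R 4.3.3, in the form of edgeR 3, was applied to TMM-normalized data, svaseq (sva 3.50.0) supplied 3 surrogate variables as covariates, and p-values were adjusted by Benjamini and Hochberg's method over all tested genes. The study names both this test and the likelihood ratio test, which was an alternative, as was DESeq2 1.42.0. A prior count of 2 went into log2 CPM. Standard errors were derived from the fold change and the test statistic. The scripts were tested on simulated data. Each of the 8 libraries was set against each other one over genes with at least 20 counts, giving chi-square values of 10.04 to 50.2 per degree of freedom, so none of the libraries copied another. P-values set the group difference against the spread between mice of a group. With surrogate variables that is only the spread those covariates leave, and without them it is all of that spread.

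All 40 genes are accounted for. Values in every library are given for the 3 tested genes with the lowest p, for the highest and lowest fold change of each role, and for the genes filtered out, and each further list is named by its highest and lowest gene. A few genes of these lists are not reported here. The members and lists were chosen with earlier results of these data known. Seed matches were searched in the longest annotated 3'UTR of each gene in GRCm39. FPKM used the summed exon length of a later annotation than the one counted. Depth limits genes below about 1 CPM such as Ccl4, Lyve1 and Pf4.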

Additional observations from a re-analysis of the deposited data

Results flagged for a closer look

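Over 96 groups of 4 libraries, 3 values stood far from the other 3 libraries of their group, where chance gives about 1 in 20 groups, or 4.8. Sall1 had 25.5 CPM in hpCTL replicate 1, against 36.9 to 38.9 CPM in the other hpCTL libraries. Spp1 had 15.7 CPM in hpCTL replicate 4, against 5.71 to 7.38 CPM. Ccl3 had 1.31 CPM in hpCTL replicate 4, against 0.607 to 0.697 CPM.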

How the results depend on the processing

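The alternatives were planned, and where a value changed the cause was not tested. Of the 38 genes, 0 passed an FDR of 0.05 with edgeR's quasi-likelihood test (19 at an unadjusted p-value below 0.05), but with 3 surrogate variables the likelihood ratio test passed 5 and DESeq2 passed 6. It was 0 in the fits that each left out 1 library. The 19 became 0 with no surrogate variables under each of the 3 tests, 12 with 1 surrogate variable, 1 with at least 10 counts in every library, and 0 (without hpCTL replicate 2 and surrogate variables) to 28 (without hp708 replicate 4, with 3) when 1 library was left out. The median log2 fold change, -0.35, was then -0.50 to 0.025, the number of lower genes, 35, was 17 to 35, and 0 to 1 gene had groups that did not overlap, Siglech without hp708 replicate 3. Of the genes of the other lists, 41 had an unadjusted p-value below 0.05. This became 2, 3 and 4 without surrogate variables (quasi-likelihood, likelihood ratio, DESeq2), 23 with 1 surrogate variable, 14 with at least 10 counts, and 1 to 60 when 1 library was left out. Over all tested genes, the 1 gene at an FDR below 0.05 became 0 with no, 1 or 2 surrogate variables and with at least 10 counts (where an unadjusted p below 0.05 held for 312 to 907). It was 2 in the fits of DESeq2 and of the likelihood ratio test that had no surrogate variables, 3 with edgeR 4, 12 with no filter, 96 with DESeq2, 127 with the likelihood ratio test, and 0 to 56 when 1 library was left out, 56 being the fit without the library labelled hp708 replicate 1.

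The replicate numbers pair nothing, since deviations of same-numbered libraries correlated between -0.041 and 0.018. With the replicate block and no surrogate variables, 0 of the 38 genes and 3 of the other lists had an unadjusted p-value below 0.05, 0 of the 38 passed an FDR of 0.05, and the log2 fold change of Cd14, Clec7a and Ccl4 became 0.0086, 0.12 and 0.031.

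Over 12 alternatives, 421 of 454 values of single genes kept their direction and their side of the threshold, 11 came to pass it and 22 changed direction. Without surrogate variables these were Cd14 0.038, Clec7a 0.17, Ccl3 0.031, Ccl4 0.073 and Cd163 -0.0044, with the likelihood ratio test Cd14 0.038, Clec7a 0.17, Ccl3 0.035, Ccl4 0.072 and Cd163 -0.0063, and with DESeq2 Cd14 0.044, Clec7a 0.18, Ccl3 0.044 and Ccl4 0.078. With at least 10 counts they were Cx3cr1 0.013, Cd14 0.18, Clec7a 0.30, Apoe 0.063 and Lgals3 0.031. When 1 library was left out, 24 of 304 values changed direction with 3 surrogate variables and 73 of 304 without, and the genes concerned had log2 fold changes of -0.23 to 0.091 (Cx3cr1), -0.048 to 0.033 (P2ry12), -0.43 to 0.11 (Tmem119), -0.16 to 0.043 (Sall1), -0.095 to 0.028 (Gpr34), -0.036 to 0.66 (Fcrls), -0.63 to 0.073 (Aif1), -0.78 to 0.021 (Ptprc), -0.41 to 0.077 (Laptm5), -1.28 to 0.15 (Cybb), -0.77 to 0.069 (C1qa), -0.71 to 0.065 (C1qb), -0.47 to 0.039 (Trem2), -0.58 to 0.066 (Cd68), -0.35 to 0.24 (Cd14), -0.97 to 0.21 (Itgax), -0.69 to 0.47 (Clec7a), -0.63 to 0.084 (Spp1), -0.18 to 0.082 (Apoe), -0.23 to 0.042 (Axl), -0.94 to 0.19 (Lgals3), -1.01 to 0.44 (Ccl3), -1.05 to 0.39 (Ccl4), -0.40 to 0.13 (Mrc1) and -0.13 to 0.31 (Cd163). The other 13 genes kept their direction in all 16 fits that left out 1 library.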

Other observations

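A single gene of the whole table passed an FDR of 0.05 in the quasi-likelihood fit of edgeR with 3 surrogate variables, Igkj1, part of the antibody kappa chain locus of B cells. Its 3 lowest libraries were those of most microglial genes, with 42.2 CPM in hpCTL replicate 1, 41.4 CPM in the library labelled hp708 replicate 1 and 42.9 CPM in hp708 replicate 3. The other hpCTL libraries had 103 to 123 CPM, and hp708 replicates 2 and 4 had 104 and 73.5 CPM. It is named here after a look at its values.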
